A study of Mus musculus with 21 samples.

Results

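The cathepsins described here were 10 lysosomal protease genes, Ctsa, Ctsb, Ctsc, Ctsd, Ctsf, Ctsh, Ctsk, Ctsl, Ctss and Ctsz, taken by symbol from a whole-brain RNA-seq table of 16318 genes. All 10 of 10 were found and all were tested. Cathepsins are made as inactive precursors, sorted to the lysosome largely by mannose 6-phosphate receptors and activated there at acid pH, where they break down proteins delivered by endocytosis and autophagy. Most are cysteine proteases, whereas Ctsd is an aspartic protease and Ctsa is a serine carboxypeptidase. In the brain, Ctss is known as a microglial gene, while Ctsd, Ctsb and Ctsl are used by many cell types, neurons included.

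RNA came from whole brains of 21 SAMP8 mice, the senescence-accelerated mouse prone 8 strain, with 1 library per mouse. Controls received phosphate-buffered saline (PBS; 6 females and 6 males), and treated mice received HsTX1[R14A] (3 females and 6 males), a peptide that blocks the potassium channel Kv1.3. The dose was 1 mg/kg under the skin every other day for 8 weeks, from 4 to 6 months of age, and all groups were SAMP8, with no SAMR1 brain in the comparison. The comparison asks how the treated brain differs in its mRNA profile. Since whole brain was sampled, fewer cells of a type and less RNA per cell cannot be told apart.

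Library totals ran from 14917171 to 47613770 counts. Treated libraries gave relatively more counts to genes with long transcripts. For each library, log2 CPM (counts scaled for library size by TMM) was centered on the gene's mean over all mice. The centered values were regressed on log2 of the length of the gene's longest annotated transcript, so the slope is per doubling of length. Relative to the average library, the slope was -0.0764 ± 0.161 (SD, n = 12) with PBS. With HsTX1[R14A] it was 0.102 ± 0.119 (SD, n = 9). The treated minus PBS difference, averaged over females and males, was 0.201 (exact two-sided permutation test within sex, p = 0.00631). The mitochondrially encoded share of counts was 14.7% ± 3.68 with PBS and 9.54% ± 1.91 with treatment. The libraries also carried 2 forms of name in the column headers, SAMP8 for 10 PBS and 5 treated mice and SAMP for 2 and 4. Their part in the results below was not tested beyond the fits given beside each result.

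Stretches of 30 bases or fewer around motif matches are shown because a motif known from lysosomal genes and one known from myeloid genes were found in different members. Windows ran from 250 bases before to 50 after the RefSeq start (GRCm38.p6) and were held for 8 of the 10 genes; Ctsb and Ctsh were not among them. Capitals mark the match. CACGTG, the core of the element bound by the TFEB family of lysosome regulators, is its own reverse complement. GAGGAAGT, a form of the site of the myeloid factor PU.1, was searched on both strands, and its reverse complement is ACTTCCTC.
Ctsd, chr7:142387908-142387937, minus strand: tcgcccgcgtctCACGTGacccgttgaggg
Ctsa, chr2:164833749-164833778, plus strand: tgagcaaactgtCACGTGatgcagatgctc
Ctsl, chr13:64370739-64370768, minus strand: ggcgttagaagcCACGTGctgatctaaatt
Ctsf, chr19:4855074-4855103, plus strand: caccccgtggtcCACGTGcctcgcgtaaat
Ctss, chr3:95526773-95526802, plus strand: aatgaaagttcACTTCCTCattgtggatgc
Ctsc, chr7:88277923-88277952, plus strand: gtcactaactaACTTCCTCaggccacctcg
CACGTG was found in 4 of the 8 genes, against 8.09% of 27025 genes with a window. Ctsd and Ctsa each held it 2 times, and 1 match of each is shown. The longer CACGTGA (reverse complement TCACGTG) was found in Ctsd and Ctsa and not in Ctsl or Ctsf, against 4.29% of genes. The PU.1 letters were found in Ctss and Ctsc, against 3.69% of those genes. The shorter GAGGAAG (reverse complement CTTCCTC), which lies within them, was found in Ctss, Ctsc and Ctsk, against 15.4%. A match is a description of the letters and not of binding, and the motifs were chosen with the treatment results in view.

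Levels between genes were compared as CPM per kilobase of the principal transcript, over all 21 mice. Ctsd was highest at 161 ± 16.02 (SD, n = 21), followed by Ctsb at 93.6 ± 8.99. These 2 genes held 38.5% and 22.4% of the summed level of the 10, and neither overlapped the range of the next gene down. Ctss came next at 47.6 ± 9.74, from 30.6 in the lowest mouse to 67.2 in the highest. Its range overlapped that of Ctsl at 37.3 ± 3.57, although Ctss was the higher of the pair in 18 of 21 mice. Ctsz, an exopeptidase, stood at 31.1 ± 4.03 and Ctsa at 20.5 ± 2.44. Below them came Ctsf at 15.7 ± 2.35, Ctsh at 6.66 ± 1.76, Ctsc at 3.67 ± 0.701 and Ctsk at 1.21 ± 0.385. The order depended on the transcript for Ctsl, which fell to place 7 when the longest annotated transcript of 6168 bases replaced the principal one of 1971.

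**Figure D1:**
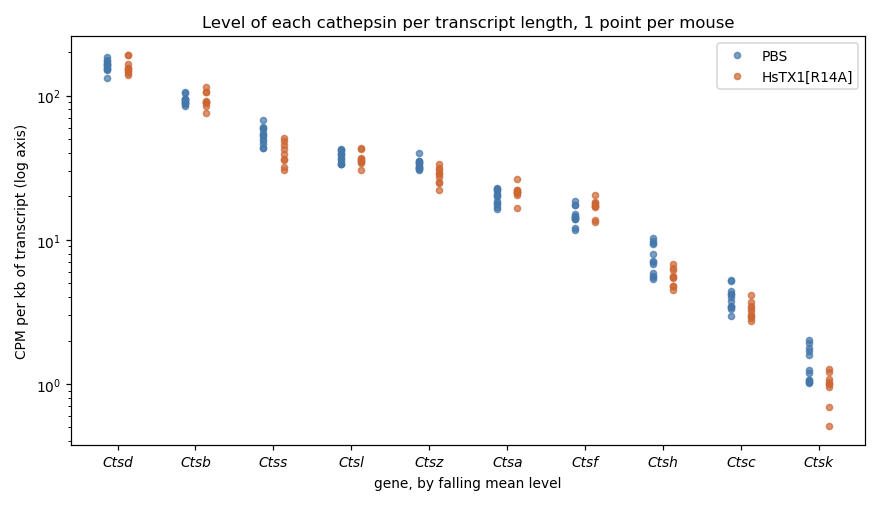
Level of each cathepsin in CPM per kilobase of its principal transcript (y axis, log scale), with 1 point per mouse, PBS in blue and HsTX1[R14A] in orange. Ctsd and Ctsb stand above all others, and Ctsk is lowest at a mean of 1.21.

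With HsTX1[R14A], 4 of the 10 cathepsins were lower, 1 was higher and 5 did not pass the test. Ctss, Ctsh, Ctsz and Ctsk fell, and Ctsf rose. The abundant Ctsd and Ctsb had log2 fold changes close to 0. The test was edgeR's quasi-likelihood test with sex as a covariate and a Benjamini-Hochberg false discovery rate (FDR) of at most 0.05 over 16303 genes. At that threshold 31.6% of all genes were called, 15.5% higher and 16.1% lower. The 5 of 10 are to be read against the 31.6%, and the 4 lower against the 16.1%. The shares also differed by the length of the longest annotated transcript, in 5 equal bins of genes. Ctss, Ctsz and Ctsk lay in the shortest bin, in which 30.9% were called lower. Ctsh and Ctsf lay in the second, with 20.8% lower and 6.47% higher. The median log2 fold change was -0.17 over the 10 cathepsins and -0.01 over all genes. A P-value here judges the treatment difference against the spread between separate mice.

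**Figure D2:**
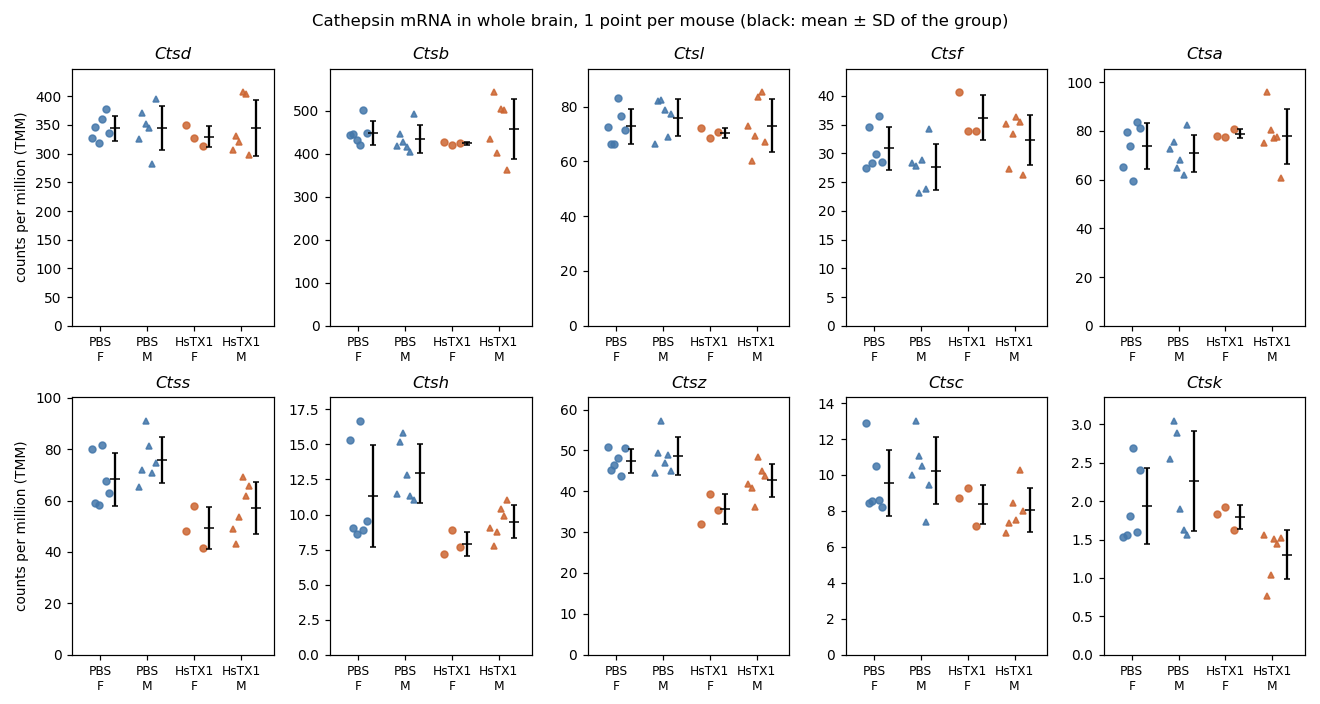
TMM-scaled CPM of each cathepsin (y axis, from 0) in every mouse by treatment and sex, with circles for females, triangles for males and black marks for the group mean ± SD. Treated mice sit low for Ctss, Ctsh and Ctsz, though treated and PBS ranges overlap for every gene shown.

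Ctss, a cysteine protease that remains active at neutral pH and trims the invariant chain of MHC class II, was the cathepsin with the smallest P-value. In PBS mice its CPM ran from 58.4 to 91.0 with a median of 71.3, and in treated mice from 41.5 to 69.0 with a median of 53.6. All 9 treated mice lay below the PBS median and 6 of 9 below the lowest PBS mouse, although the ranges overlapped. The means were 72.0 ± 10.1 (SD, n = 12) and 54.4 ± 9.82 (SD, n = 9), with a log2 fold change of -0.43 (SE 0.0955, edgeR FDR = 0.0151). Ctss has a transcript of 1355 bases. When genes were split into 5 equal bins by length, Ctss lay in the shortest bin, in which 30.9% were called lower and the median log2 fold change was -0.29. After each library's trend on length and GC content was removed, the value for Ctss was -0.13 (FDR = 0.168), which is no longer a call.

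Ctss was also compared with the microglia around it. Of 24 microglia markers, all tested, 11 fell, 0 rose and 13 did not pass, with a median of -0.28, against 16.1% of all genes called lower. P2ry12, a purine receptor of resting microglia, changed by -0.65 (FDR = 0.0151) and the complement gene C1qb by -0.43 (FDR = 0.0151). These 2 had the smallest P-values of the list. By sign, 19 of the 24 were negative. Among the positive ones were Sall1 at 0.49 (FDR = 0.0885) and Csf1r at 0.28 (FDR = 0.134), and Tmem119 stood at -0.08 (FDR = 0.473). The summed CPM of the 24 ran from 729 to 957 with PBS and from 625 to 868 with treatment. The marker score, the mean centered log2 CPM of 23 of the markers, differed by -0.23 (treated minus PBS, exact permutation within sex, two-sided p = 0.00201) and was lower than the PBS median in 8 of 9 treated mice. Relative to that score Ctss was lower, and Ctss minus the score differed by -0.22 (exact permutation p = 0.00377), with all 9 treated mice below the PBS median. Neither the marker counts, the score difference nor this contrast was corrected for transcript length. In the shortest length bin 30.9% of all genes were called lower. The markers in the score ran from 597 bases (Tyrobp) to 5756 (Tgfbr1), against 1355 for Ctss. Whether Ctss fell beyond microglia markers of its own length was not tested. Among the 15 mice named SAMP8 in the headers, Ctss minus the score differed by -0.17, with an exact permutation p of 0.0595.

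Ctsh, a cysteine protease with aminopeptidase activity, ran from 8.58 to 16.7 CPM with PBS (median 11.4) and from 7.19 to 11.03 with treatment (median 8.88). All 9 treated mice were below the PBS median. Its log2 fold change was -0.47 (SE 0.124, edgeR FDR = 0.0176), and it kept a call after the length and GC trend was removed (-0.41, FDR = 0.0227). That trend took Ctsh at its longest transcript of 2743 bases. Its principal transcript has 1617 bases, within the span of the shortest bin (151 to 1858), and a trend on principal lengths was not tested. Ctsh lost the call with the library's length slope as covariate (-0.15, FDR = 0.547) and with 1 surrogate variable (-0.23, FDR = 0.148). The PBS females split, with 2 mice well above the other 4 in the plot of values by mouse.

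Ctsz, also called cathepsin X, trims single residues from the carboxy terminus of proteins. It ran from 43.7 to 57.2 CPM with PBS (median 47.5) and from 32.1 to 48.3 with treatment (median 40.9), and 6 of 9 treated mice were below the lowest PBS mouse. The log2 fold change was -0.28 (SE 0.0657, FDR = 0.0156, edgeR), and -0.15 (FDR = 0.0629) with the length and GC trend removed, which is not a call. Its transcript of 1441 bases also lies in the shortest bin.

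Ctsk, known as the collagen-degrading protease of osteoclasts, was scarce, at 13 to 95 counts a mouse. PBS mice ran from 1.53 to 3.05 CPM (median 1.85) and treated mice from 0.771 to 1.93 (median 1.52). Its log2 fold change was -0.50 (SE 0.174, edgeR FDR = 0.0372), -0.25 (FDR = 0.263) with the length and GC trend removed, and not called by limma/voom (FDR = 0.0527). It lost its call in 9 of the 21 fits that each left out 1 mouse. Ctsk and Ctss are neighbors on chromosome 3, with Ctsk at chr3:95499256-95509362 and Ctss at chr3:95526786-95556403 in GRCm38, both on the plus strand and 17424 bases apart.

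Ctsc, which activates the serine proteases of immune cells, just missed the threshold. Its CPM ran from 7.37 to 13.01 with PBS (median 9.71) and from 6.78 to 10.3 with treatment (median 7.99), with 8 of 9 treated mice under the PBS median. The log2 fold change was -0.28 (SE 0.106, edgeR FDR = 0.0502), while DESeq2 gave an adjusted P of 0.0441 and limma/voom 0.0648. With the length and GC trend removed it was -0.08 (FDR = 0.594).

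Ctsf, a broadly expressed cysteine protease, was the cathepsin that rose. Its CPM ran from 23.1 to 36.5 with PBS (median 28.4) and from 26.2 to 40.7 with treatment (median 33.9), and 7 of 9 treated mice were above the PBS median. The log2 fold change was 0.23 (SE 0.0827, edgeR FDR = 0.0437). With the length and GC trend removed it was 0.22 (FDR = 0.0418), with the length slope as covariate it was 0.12 (FDR = 0.619), with the name form as covariate it was 0.19 (FDR = 0.0903), and it lost its call in 14 of the 21 fits that each left out 1 mouse.

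The other 4 cathepsins did not pass the test. Ctsd had a PBS range of 282 to 395 CPM and a treated range of 297 to 408, with a log2 fold change of -0.03 (SE 0.0721). Ctsb ran from 404 to 501 and from 362 to 544, with 0.02 (SE 0.0708). For Ctsl the values were 66.2 to 83.2 and 60.2 to 85.3, with -0.05 (SE 0.0667). Ctsa, which also stabilizes other lysosomal glycosidases, ran from 59.5 to 83.5 and from 60.7 to 96.0, with 0.12 (SE 0.0776). Treated and PBS ranges overlapped for each of these genes. Reads of several cathepsins may be shared with annotated genes that overlap them. On the opposite strand these are Pltp and Neurl2 for Ctsa, Fdft1 for Ctsb, Nelfcd for Ctsz and a noncoding gene each for Ctsc and Ctsl. On the same strand they are Gm49369 for Ctsd, and a processed pseudogene each for Ctss and Ctsl, and how the authors' counting used strand was not stated in the sources used here.

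**Figure D3:**
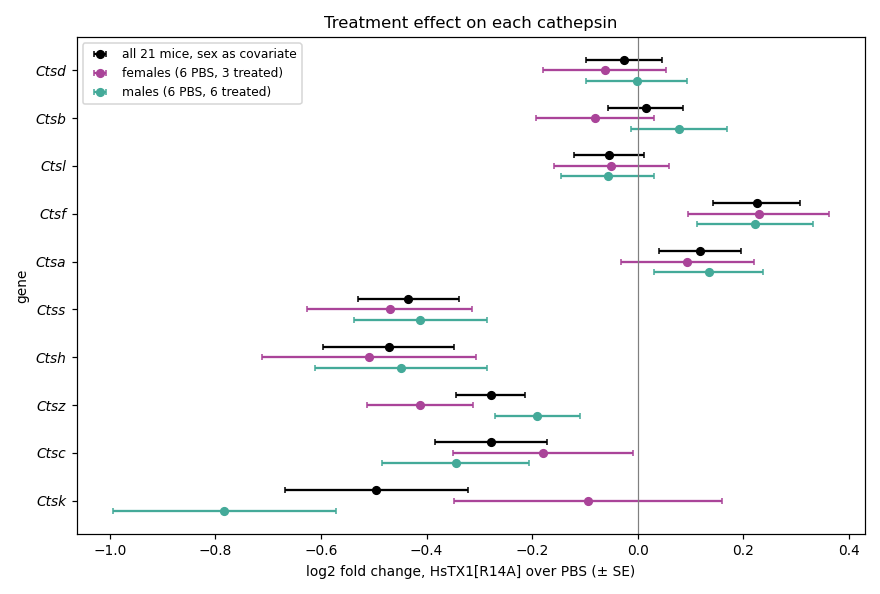
Treatment effect on each cathepsin as log2 fold change against PBS (x axis, ± SE), from all 21 mice (black), females (purple) and males (green). Ctsk is the gene for which the female and male points lie farthest apart, at -0.09 and -0.78.

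The calls depended on what was held constant. With the name form as covariate, 3 cathepsins were called, Ctss, Ctsh and Ctsz. In the 15 mice of the more common name form 0 cathepsins and 0 genes were called by edgeR, though 5 cathepsins and 5797 genes had an unadjusted p under 0.05, and Ctss stood at -0.41 (FDR = 0.0614). With the library's length slope as covariate 0 cathepsins and 0 genes were called, with 2 and 1865 at an unadjusted p under 0.05, and Ctss stood at -0.21 (FDR = 0.33). In all alternatives Ctss kept its negative sign, from -0.50 to -0.13.

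Sex had no call among the cathepsins. Of all genes, 0.0552% were called by edgeR between males and females, and 0 of 10 cathepsins were, with 0 at an unadjusted p under 0.05. By DESeq2 0 cathepsins and 26 genes were called, and by limma/voom 0 and 10. The largest value was that of Ctsh, higher in males by 0.22 (SE 0.123, FDR = 0.447), followed by Ctss at 0.18 (SE 0.0950, FDR = 0.446). The treatment by sex interaction called 0% of genes by edgeR, with 270 genes and 1 cathepsin at an unadjusted p under 0.05, and limma/voom and DESeq2 also called 0 genes. That cathepsin was Ctsk, whose interaction was -0.69 (SE 0.328, FDR = 1). Within each sex 0 genes passed, with 4539 genes in females and 3913 in males at an unadjusted p under 0.05.

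Mice varied together in some cathepsins. After the means of the 4 groups were subtracted, 12 of 45 pairs of cathepsins had a Benjamini-Hochberg adjusted permutation p of at most 0.05 for Pearson's r over 21 mice, 10 positive and 2 negative. The highest was Ctss with Ctsh (r = 0.77, rho = 0.69, permutation p = 8e-05, adjusted 0.0036), and r was 0.73 without the 2 mice farthest from the median of Ctsh. Ctsd went with Ctsl (r = 0.70), Ctsb (r = 0.68) and Ctsf (r = 0.65), while Ctss with Ctsd reached 0.35 and Ctss with Ctsb -0.19. Ctsl also went with Ctss (r = 0.65) and Ctsh (r = 0.55), both past the adjusted threshold. Ctsa was negatively related to Ctsh (r = -0.69) and Ctss (r = -0.61). Each of these genes was also related to the length slope of the libraries (r = 0.85 for Ctsa, -0.81 for Ctsh and -0.75 for Ctss). The pairs were not recomputed with that slope removed, so its part in them was not tested. These pairs were examined in addition to the planned tests, and the share over pairs of all genes was not computed. Among 13302 genes ranked by r, Ctsh stood at place 882 for Ctss, and Ctsl at place 48 for Ctsd. Many other genes were thus more like Ctss than Ctsh was.

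**Figure D4:**
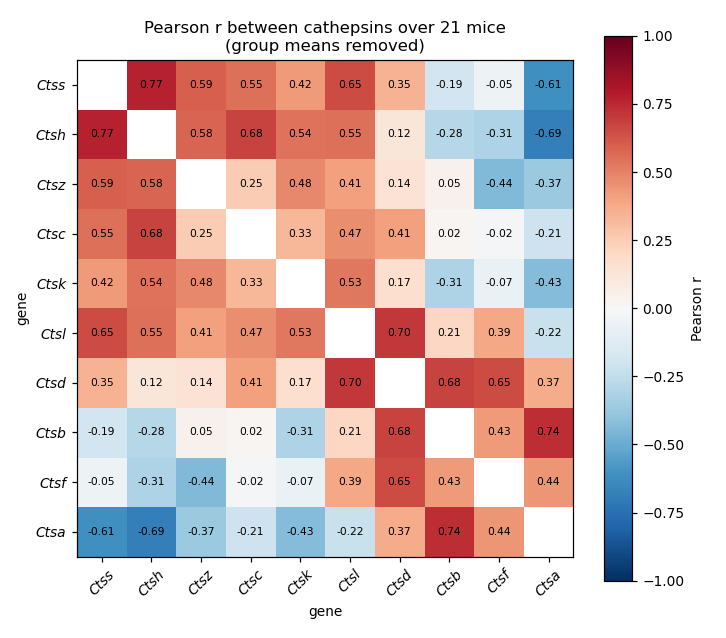
Pearson r between every pair of cathepsins over 21 mice after removal of group means, red for positive and blue for negative. Ctss and Ctsh form the highest pair at 0.77, and Ctsa with Ctsh is the lowest at -0.69.

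Each cathepsin was then set against the microglia score and the length slope of its library, 20 relations adjusted together. For Ctss, r was 0.74 with the microglia score (rho = 0.72, permutation p = 0.00076, adjusted 0.00304) and -0.75 with the length slope (rho = -0.72, permutation p = 7e-05, adjusted 0.0007), and both held without the 2 mice farthest from the median (0.74 and -0.71). Ctsh gave 0.65 and -0.81, and Ctsz 0.67 and -0.56. Ctsc gave 0.57 and -0.30, and Ctsk 0.55 and -0.51. Both passed the adjusted threshold with the microglia score but not with the length slope. Ctsd gave 0.40 and 0.07, and Ctsb 0.03 and 0.42, none past the adjusted threshold. Ctsa was the reverse of Ctss on length, with r = 0.85 (adjusted 0.0007). The microglia score and the length slope were themselves related at r = -0.41, so the 2 are not independent axes for Ctss.

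**Figure D5:**
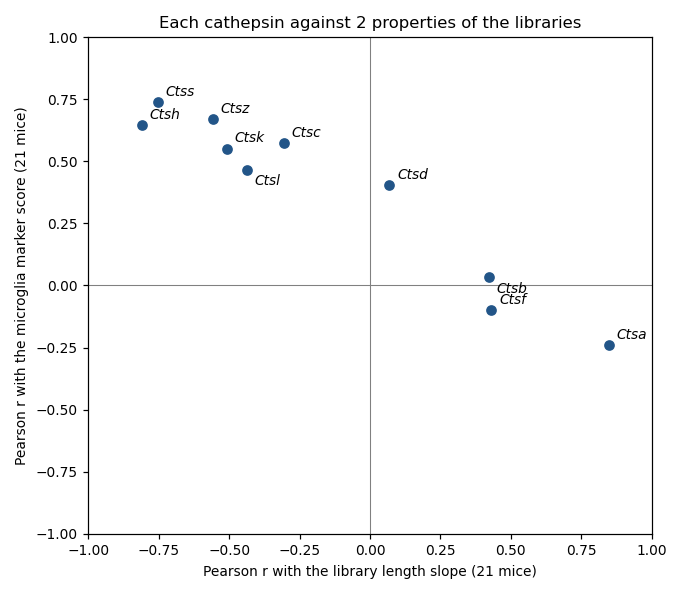
Pearson r of each cathepsin with the library length slope (x axis) and with the microglia marker score (y axis), over 21 mice after removal of group means. Ctss lies at -0.75 and 0.74, and Ctsa at 0.85 and -0.24.

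Likeness was ranked over 13302 genes whose log2 CPM averaged 1 or more. Among the genes most like Ctss over the mice were C1d (r = 0.90), Glod4 (0.90), Smim10l2a (0.90) and Spcs1 (0.90). The median r to Ctss was 0.59 over the microglia markers and -0.03 over all genes. The genes most like Ctsd were Aar2 (r = 0.94), Hsd17b11 (0.86), Prnp (0.82), Pja1 (0.81) and Hadha (0.78), and the microglia markers had a median r of 0.26 to it. All of these values are descriptions over 21 mice.

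Genes that restrain, sort or switch on cathepsins were counted next. Their counts stand against 15.5% of all genes called higher and 16.1% called lower. Of 12 tested cystatins and other inhibitors, 8 fell, 2 rose and 2 did not pass. Cst3, the secreted cystatin C, changed by -0.51 (SE 0.167, edgeR FDR = 0.0297) and Cstb by -0.53 (SE 0.163, FDR = 0.0249). Their transcripts of 860 and 603 bases are short too. Of 16 genes of cathepsin sorting and activation, 6 rose, 1 fell and 9 did not pass. Igf2r, a mannose 6-phosphate receptor, rose by 0.76 (SE 0.187, FDR = 0.0164). Its transcript of 8887 bases lies in the longest of the 5 length bins, in which 35.4% of genes were called higher. The other such receptor, M6pr, named after its value was seen, had -0.17 (SE 0.0709, FDR = 0.0665), and Lgmn, the protease that processes several cathepsins, had 0.12 (FDR = 0.33). Of 19 regulators of lysosome genes, 4 rose, 3 fell and 12 did not pass, and Tfeb had 0.12 (SE 0.125, FDR = 0.451). Ctso, the 1 other cathepsin gene in the table, fell by 0.52 (SE 0.121, FDR = 0.0154).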

How the data were processed

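Whole-brain RNA from 21 SAMP8 mice was sequenced. The authors aligned reads to GRCm38 with STAR and quantified genes with Salmon, and the deposited values are estimated counts, not normalized, which were rounded before testing. The labels and the study's methods name different library kits. The authors' fold changes, P-values, FDR and average expression were not used, nor were 53 per-sample columns (16 of counts, 37 of CPM) of other libraries or of normalized values. Members and lists were chosen with earlier results of these data known.

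After filterByExpr left 16303 genes, TMM scaling was applied and edgeR 4.0.16 (R 4.3.3) fitted sex and treatment together. CPM carried no pseudocount, and log2 CPM carried a prior count of 2. Transcript lengths came from GENCODE for GRCm38 and were found for 16224 tested genes. The slope, the bins and the trend on length and GC used the longest annotated transcript of each gene. Alternatives used limma 3.58.1, DESeq2 1.42.0 and sva 3.50.0, other scaling and filters, the name form, length corrections and leaving out each mouse. Correlations used 100000 permutations within groups. The treatment fit was tested on simulated counts without a length slope or name form difference between libraries, so that test does not bear on either. The 48 pairs of mice in the same group differed by more than sampling noise, and 21 of 21 libraries matched their labeled sex.

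Named genes were the 10 members, Lgmn, Cst3, Cstb, Cst7 (not in the table used here) and Tfeb, the 2 genes with the smallest P-value in a list, and the 5 genes most like Ctss and Ctsd. Not every gene so named is printed, and 1 of those most like Ctss is not reported here.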

Additional observations from a re-analysis of the deposited data

Results flagged for a closer look

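In 39 comparisons of the highest and lowest mouse with the rest of its group of 6 mice (the CPM of the 10 cathepsins, the length slope, the microglia score and Ctss minus that score), 1 value stood apart by Dixon's criterion. Chance gives this in about 1 of 20 groups. Ctsb reached 501.5 CPM in PBS female 104, while the other 5 PBS females ran from 421.4 to 448.6.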

How the results depend on the processing

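No paired analysis was possible because the replicate numbers are single mice that no 2 groups share. The paper states that treatment was randomized within cages, but the sample labels give no cage, so cage could not be used as a block. The treatment count of 5 cathepsins became 3 with the name form as covariate, 2 with the length and GC trend removed, and 0 in the more common name form alone, in the less common name form alone, with 1 surrogate variable and with the length slope as covariate. The count of all genes, 5144, became 2984 with no sex term, 1999 with the name form, 0 in either name form alone, 216 with 1 surrogate variable, 2686 with the length and GC trend removed and 0 with the length slope. The less common form alone had 532 genes at an unadjusted p under 0.05. Leaving out 1 mouse gave 3 to 6 cathepsins (3, namely Ctss, Ctsh and Ctsz, without PBS 83 or 90, or treated 98, 74 or 88) and 2289 to 6614 genes (2289 without PBS 90, 3332 without treated 71, 3005 without 98, 3263 without 81 and 3121 without 88). Sex called 9 genes, but 26 by DESeq2, 1 with at least 10 counts in every mouse and 19 with the length and GC trend removed. Ctss minus the microglia score was -0.17 in the more common form. Signs turned for Ctsf in the less common form (-0.0717) and otherwise for values that were not calls. Treatment, Ctsa: -0.0027 in the less common form, -0.0265 with 1 surrogate variable, -0.0614 with the trend removed and -0.0795 with the length slope. Treatment, Ctsb: -0.0526 with the name form, -0.0667 and -0.0528 in the more and less common form, -0.0305 with 1 surrogate variable, -0.14 with the trend removed and -0.0582 with the length slope, and -0.0205 to 0.0464 without 1 mouse. Treatment, Ctsl: 0.015 with 1 surrogate variable and 0.0295 with the length slope. Sex, Ctsa: 0.0168 in the less common form, 0.0263 with 1 surrogate variable, 0.0588 with the trend removed and 0.051 with the length slope. Sex, Ctsb: -0.0085 with the name form, -0.0553 in the more common form, and -0.0095 to 0.0474 without 1 mouse. Sex, Ctsc: -0.0266 with the trend removed, and -0.0106 to 0.10 without 1 mouse. In the more common form the sex value was -0.0438 for Ctsd and 0.0353 for Ctsk, the latter -0.12 to 0.0141 without 1 mouse. The causes were not tested. Ctsk had the lowest counts of the 10, at 13 to 95 a mouse.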

Other observations

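Other parts of the lysosome were counted against all genes, of which edgeR called 31.6% with treatment, 15.5% higher and 16.1% lower. No list was tested against that background. Of 40 other lysosomal hydrolases tested, 6 rose, 5 fell and 29 did not pass. Among those called were Pla2g15, a lysosomal phospholipase, at 0.38 (FDR = 0.0163) and the ganglioside activator Gm2a at -0.32 (FDR = 0.0163). Of 28 lysosomal membrane proteins, 7 rose and 5 fell, and of 18 vacuolar ATPase subunits 2 rose and 2 fell. Of 9 genes of MHC class II presentation, 1 fell, H2-Ob at -0.65 (FDR = 0.0194). It was scarce, at a mean of 0.991 CPM with PBS and 0.616 with treatment. By sign all 9 were negative, with a median log2 fold change of -0.50.

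Counts of cell type markers are to be read against the same shares of all genes. Of 12 oligodendrocyte markers, 7 fell and 0 rose, and of 12 astrocyte markers 4 fell and 2 rose. Of 11 tested activated microglia markers, 4 fell and 1 rose, and of 7 border macrophage markers 3 fell. Of 12 neuron markers 2 rose and of 12 endothelial markers 3 rose, with 0 lower in either, against 15.5% of all genes called higher. None of the 10 fibroblast, 9 choroid plexus and 5 erythrocyte markers passed, and 0 of the 10 neutrophil and lymphocyte markers were in the table used here. The part of these markers in the cathepsin results was not tested.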
